A study of Mus musculus with 8 samples.

Results

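The genes described here are 34 genes of cholesterol synthesis, uptake, trafficking and control. They were named from the pathway and not picked by their measured values, but earlier results of these data were known at the time. They were matched by symbol to 34 of the 46113 gene IDs in the files, each on a single row, and all 34 were among the 12751 genes whose exon reads were abundant enough to be tested. By role they are 7 genes of the mevalonate steps, 11 genes of the squalene and sterol steps, 4 uptake receptors, 4 genes of trafficking and storage and 8 regulators.

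The libraries are bulk RNA-seq of 2 cell fractions sorted from the bone marrow of C57BL/6 mice, with 4 libraries of each. All cells were lineage-negative and gated as positive for CD150, Sca1 and c-Kit. The fraction without surface CD34 is labelled HSC (hematopoietic stem cells) and the fraction with CD34 is labelled HPC (hematopoietic progenitor cells). Ages were 8 to 10 weeks, and no treatment or genotype is named for either fraction. The protocol speaks of 5000 sorted stem cells, and neither it nor any other label says whether libraries came from separate or pooled animals, so the p-values measure the spread between these libraries, which may be technical.

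Animal cells build cholesterol from acetyl-CoA, first through mevalonate to isoprenoid units, then through squalene to lanosterol, which a chain of enzymes trims to cholesterol. They also take it up in lipoproteins through surface receptors, release it in lysosomes and move it between membranes. When the endoplasmic reticulum is poor in sterol, SCAP escorts the SREBP transcription factors to the Golgi, where they are cut free to raise synthesis and uptake genes. INSIG proteins hold SCAP back when sterol is ample, and the LXR nuclear receptors, which bind oxysterols, raise genes of cholesterol export.

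Each library held 16291733 to 20564901 exon reads, and 3 reads, taken as the limit that a count of 0 allows, correspond to 0.146 to 0.184 CPM (counts scaled by library size to a common total), which covers counting error only. Cd34 stood at 102 to 139 CPM in HSC and at 1205 to 1342 CPM in HPC, as the gate asked. Slamf1, which encodes CD150, stood at 32.1 to 45.5 CPM in HSC but at 2.32 to 3.90 CPM in HPC, although both fractions are labelled CD150-positive. Kit stood at 652 to 1155 CPM over the 8 libraries.

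Upstream sequence is shown for 3 members: Insig1, the regulator with the smallest adjusted p, Msmo1, the enzyme with the largest rise in HSC, and Ebp, the only synthesis gene that fell. Each run is the 250 bases before the RefSeq transcription start on build GRCm38.p6, written 5′ to 3′ on the gene's strand, and capitals mark the letters CCAAT (or ATTGG, the same box on the other strand) and CACGTG, a palindromic E-box. Insig1 lies at chr5:28071162-28071411 (plus strand), Msmo1 at chr8:64733579-64733828 (minus strand) and Ebp at chrX:8193513-8193762 (minus strand).
Insig1: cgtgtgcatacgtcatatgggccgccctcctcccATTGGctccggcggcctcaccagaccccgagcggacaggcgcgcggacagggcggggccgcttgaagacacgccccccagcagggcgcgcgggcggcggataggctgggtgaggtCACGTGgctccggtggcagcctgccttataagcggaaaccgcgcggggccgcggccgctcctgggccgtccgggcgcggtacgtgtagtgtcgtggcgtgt
Msmo1: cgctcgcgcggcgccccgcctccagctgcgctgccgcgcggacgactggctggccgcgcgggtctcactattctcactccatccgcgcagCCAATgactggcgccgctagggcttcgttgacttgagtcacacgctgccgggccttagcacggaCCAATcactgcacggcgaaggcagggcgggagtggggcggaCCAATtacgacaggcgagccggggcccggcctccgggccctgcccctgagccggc
Ebp: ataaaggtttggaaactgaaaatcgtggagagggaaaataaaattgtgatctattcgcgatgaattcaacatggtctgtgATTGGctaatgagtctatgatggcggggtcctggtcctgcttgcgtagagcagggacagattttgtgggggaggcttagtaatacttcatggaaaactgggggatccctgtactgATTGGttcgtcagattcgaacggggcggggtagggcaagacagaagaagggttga

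CCAAT boxes are bound by NF-Y, a factor known to work beside SREBP at sterol genes. Promoters in the RefSeq table were found for 28 of the 34 members, and where a gene had several starts any of them counted. CCAAT on either strand stood within the 250 bases before a start for 22 of these 28, or 78.6%, against 40.9% of the 10245 tested genes with a promoter. Among synthesis genes the count was 14 of 15, with Acat2 as the exception, and among the other members 8 of 13. The box was found in genes that rose (Msmo1, Pmvk, Idi1), in Ebp, which fell, and in genes without a call (Hmgcs1, Cyp51). The E-box CACGTG was found for 5 of 28 members, or 17.9%, against 9.87% of tested genes, and the 8-letter core of the sterol regulatory element CACCCCAC for 2, Acat2 and Hmgcs1 (7.14% against 3.39%). AGGTCA, a hexamer that nuclear receptors bind, stood in 4 of 28 (14.3% against 13.0%), and in Insig1 it overlaps the E-box. Letters were searched on both strands, and a match is not a shown binding site.

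The comparison of HSC with HPC asks which members differ between CD34-negative and CD34-positive cells. Synthesis enzymes that changed were nearly all higher in HSC, while the uptake receptors and the lysosomal pair Npc1 and Npc2 that changed were lower. Of the 34 members, 12 rose in HSC, 5 fell and 17 had no call (edgeR quasi-likelihood test, Benjamini-Hochberg adjustment over all genes tested, threshold 0.05). Over all genes tested 37.1% were called, 19.6% higher and 17.6% lower. The median log2 change was 0.11 over the members and 0.00 over all genes tested. In 15 of the 34 members the CPM ranges of the fractions did not overlap, as in 36.7% of all genes tested. Changes were modest, and when the test itself required a fold of at least 1.5 only Insig1, Nr1h3 and Vldlr kept their calls. In bulk libraries, fewer cells of a type and less RNA per cell cannot be told apart.

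**Figure D1:**
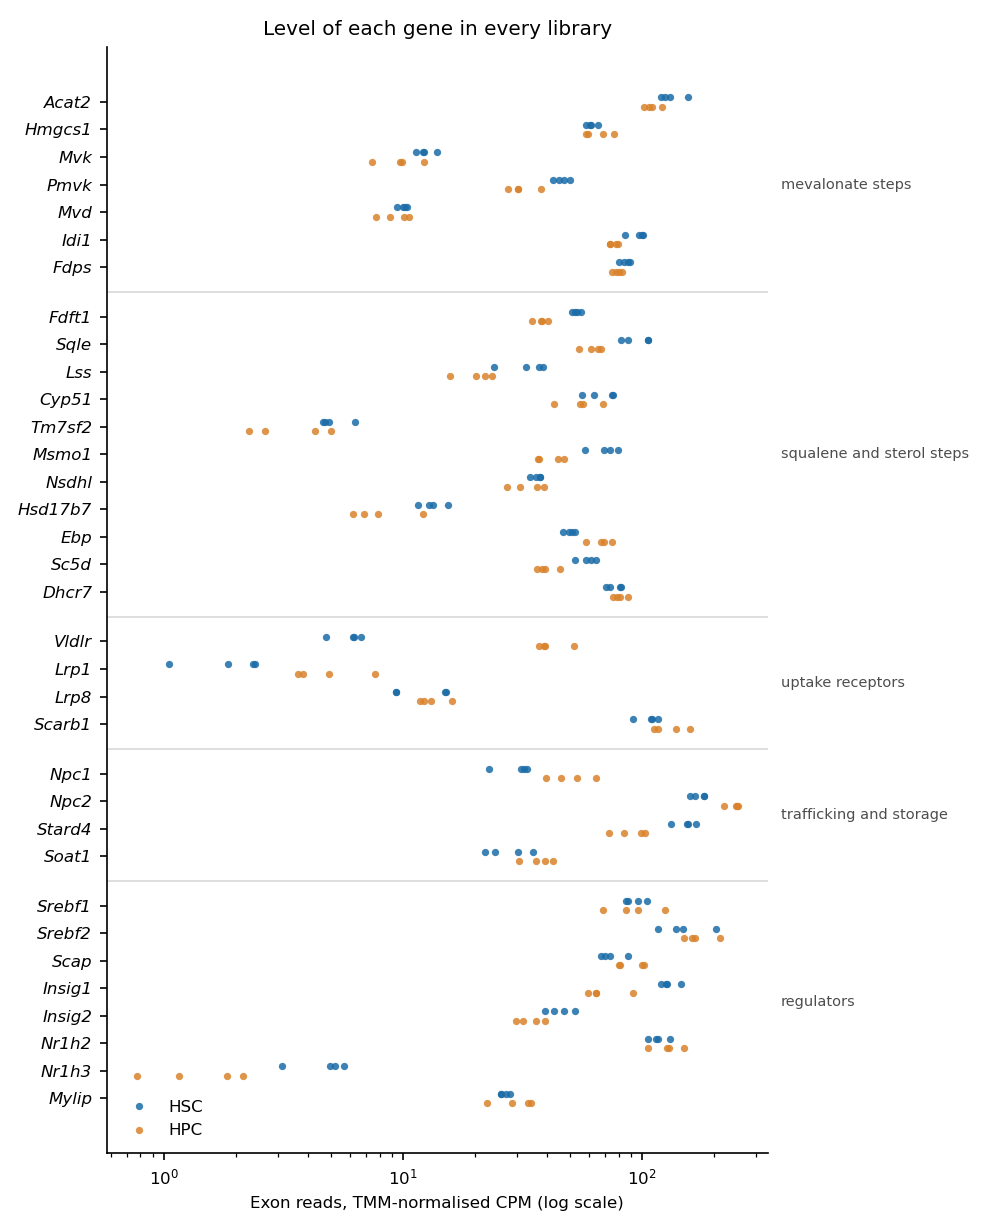
Exon reads of each of the 34 members in every library, in TMM-normalised CPM on a log axis, with HSC in blue and HPC in orange and genes grouped by role. Vldlr shows the widest gap, at 4.77 to 6.70 CPM in HSC against 37.0 to 51.9 CPM in HPC, while Srebf1, Srebf2 and Nr1h2 overlap between the fractions.

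Among the 7 genes of the mevalonate steps, 2 rose, none fell and 5 had no call, at a median log2 change of 0.27. Shares over all genes tested were 19.6% higher and 17.6% lower. Pmvk, the phosphomevalonate kinase (NCBI gene 68603, chromosome 3, 89454541 to 89469009, mm10), stood at 44.9, 42.5, 47.0 and 49.9 CPM in HSC libraries 1 to 4 and at 30.4, 37.6, 27.4 and 30.2 CPM in HPC libraries 1 to 4. Every HSC library lay above every HPC library, and the mean was 1.47-fold higher (46.1 ± 3.14 against 31.4 ± 4.33 CPM, SD, n = 4 each, log2 0.55 ± 0.13, SE, edgeR adjusted p = 0.0031). Idi1, the isomerase that interconverts the isoprenoid units, stood at 97.3, 101, 99.8 and 84.6 CPM in HSC and at 77.5, 73.7, 79.0 and 73.3 CPM in HPC. These groups did not overlap either (log2 0.33 ± 0.09, edgeR adjusted p = 0.012). Only 20.8% of the exon reads of Idi1 were uniquely placed, and with those reads alone its call was lost at a log2 change of 0.36 (edgeR adjusted p = 0.095).

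The other 5 mevalonate genes had no call. Hmgcs1, the HMG-CoA synthase at the head of the route, was at 61.2 ± 2.92 CPM in HSC against 65.7 ± 8.68 CPM in HPC. Fdps, which makes farnesyl diphosphate, was at 84.9 ± 4.03 against 78.9 ± 3.38 CPM. The mevalonate kinase Mvk (12.4 ± 1.07 against 9.84 ± 1.99 CPM) and the decarboxylase Mvd (9.99 ± 0.414 against 9.29 ± 1.29 CPM) were low. Acat2, which condenses acetyl-CoA, stood at 133 ± 16.2 against 110 ± 8.06 CPM and lay at the threshold (log2 0.27 ± 0.10, edgeR adjusted p = 0.0502). Acat2 passed in 7 of the 19 alternatives that required no minimum fold, RLE scaling among them (0.0485), and did not pass with uniquely placed reads, which were 61.2% of its exon reads.

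The squalene and sterol steps held most of the rises, with 6 of 11 genes higher, 1 lower and 4 without a call. Their median log2 change was 0.53. By comparison, 19.6% of all genes tested were higher and 17.6% lower. The first 3 enzymes in order, Fdft1, Sqle and Lss, all rose. Fdft1, the squalene synthase (gene 14137, chromosome 14, 63145150 to 63181687), was at 53.6, 55.7, 52.5 and 50.9 CPM in HSC and at 38.0, 37.9, 34.8 and 40.4 CPM in HPC. Every HSC library lay above every HPC library (log2 0.49 ± 0.11, edgeR adjusted p = 0.0020). Fdft1 overlaps Ctsb, which lies on the opposite strand, over 774 bases, and Ctsb was also higher in HSC (396 against 299 CPM). Whether counting used strand is not given in the sources used here, so reads of the shared stretch cannot be told apart.

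Sqle, the squalene epoxidase (gene 20775, chromosome 15, 59315092 to 59331193), stood at 87.5, 106, 106 and 81.5 CPM in HSC and at 54.2, 67.6, 65.4 and 61.1 CPM in HPC. It was 1.53-fold higher without overlap (log2 0.62 ± 0.12, edgeR adjusted p = 7.2e-04), and its exon reads were uniquely placed. Lss, which closes squalene epoxide to lanosterol, was at 32.7, 38.4, 36.9 and 24.0 CPM in HSC and at 23.5, 20.3, 22.0 and 15.7 CPM in HPC. Its lowest HSC library, replicate 4, barely cleared the highest HPC library (log2 0.70 ± 0.17, edgeR adjusted p = 0.0052). For Lss 55.7% of exon reads were uniquely placed, and these alone gave 0.58 (edgeR adjusted p = 0.017).

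Msmo1, an oxygenase that helps to strip methyl groups from sterols (gene 66234, chromosome 8, 64718145 to 64733578), had the largest rise of the enzymes. It was at 73.6, 79.3, 69.2 and 57.5 CPM in HSC and at 36.7, 37.0, 47.1 and 44.4 CPM in HPC. This is 1.69-fold, with no overlap (log2 0.76 ± 0.13, edgeR adjusted p = 3.2e-04). Hsd17b7, the keto-reductase of the same demethylation, stood at 15.5, 13.4, 11.6 and 12.8 CPM in HSC and at 12.1, 6.86, 7.86 and 6.19 CPM in HPC. Its groups overlapped, since HPC replicate 1 lay above HSC replicate 3 (log2 0.69 ± 0.23, edgeR adjusted p = 0.026). The call of Hsd17b7 was lost without HSC replicate 1 or 2 and without HPC replicate 2, 3 or 4, with log2 changes over the fits without 1 library from 0.57 to 0.92. Sc5d, the sterol desaturase near the end of the route (gene 235293, chromosome 9, 42251592 to 42264300), was at 61.0, 58.5, 64.1 and 52.6 CPM in HSC and at 38.1, 36.3, 39.1 and 45.2 CPM in HPC. Every HSC library again lay above every HPC library (log2 0.57 ± 0.12, edgeR adjusted p = 0.0012).

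Ebp, the sterol isomerase (gene 13595, chromosome X, 8185329 to 8193512), went the other way. It stood at 49.3, 46.6, 51.1 and 52.6 CPM in HSC and at 69.5, 67.0, 58.1 and 74.9 CPM in HPC. The mean was 1.35-fold lower in HSC and the groups did not overlap (log2 −0.43 ± 0.11, edgeR adjusted p = 0.0059). The other 4 had no call. Cyp51, the sterol demethylase, was at 67.2 ± 9.34 against 55.8 ± 10.4 CPM, Nsdhl, a dehydrogenase of the demethylation, at 36.2 ± 1.56 against 33.3 ± 5.23 CPM, and Dhcr7, the last reductase, at 76.6 ± 5.41 against 80.6 ± 5.20 CPM. Tm7sf2, another sterol reductase, was low at 5.15 ± 0.786 against 3.56 ± 1.31 CPM.

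**Figure D2:**
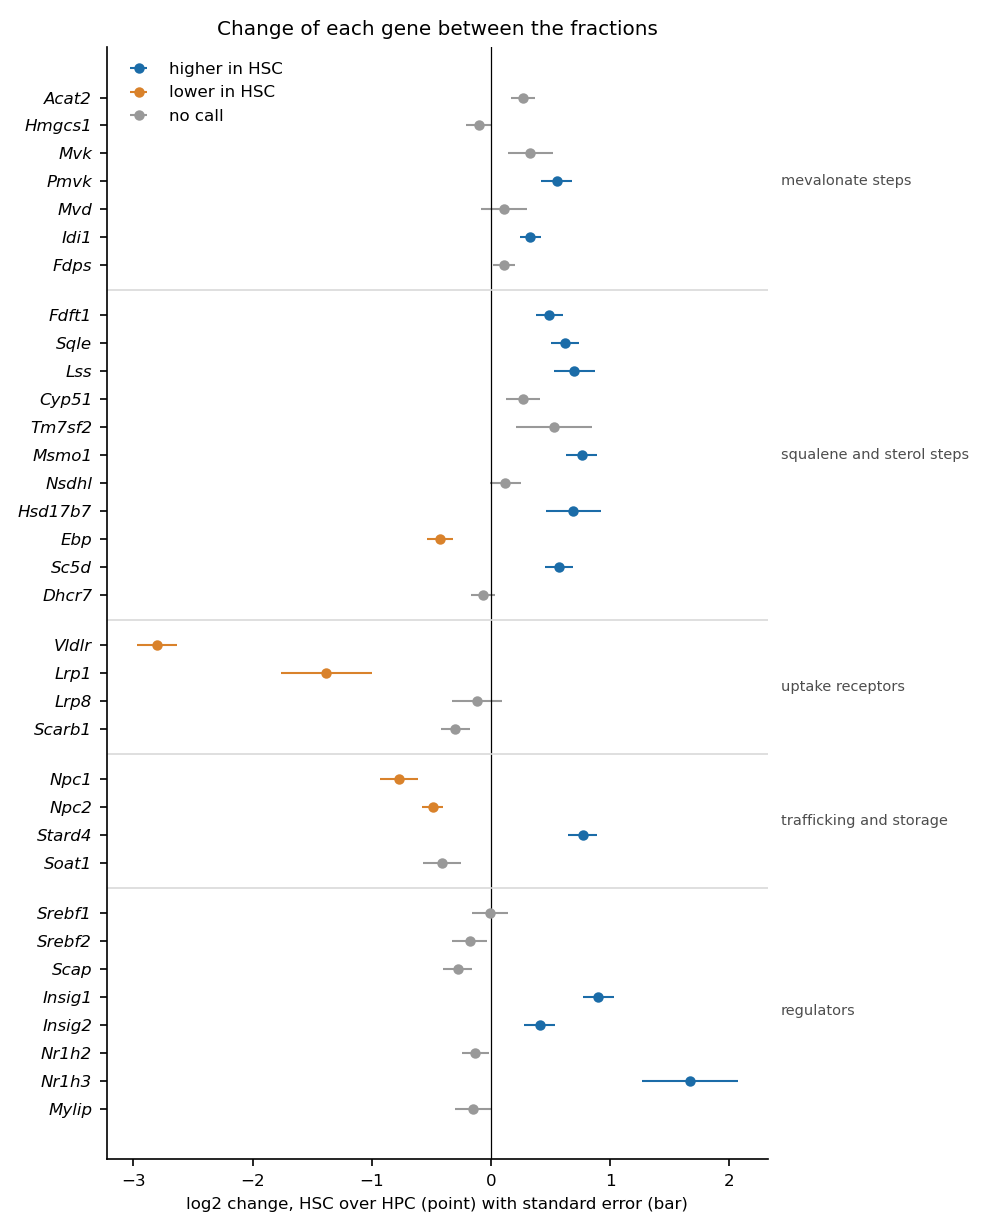
Log2 change of each member between the fractions, HSC over HPC, with its standard error as a bar, grouped by role and coloured by the call. Of 18 synthesis genes, 15 lay above 0 and 8 passed the test upward, while Ebp passed downward and all 4 uptake receptors lay below 0.

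Over both blocks, 15 of 18 synthesis genes had a change above 0, with 8 higher, 1 lower and a median of 0.33. All genes tested gave 19.6% higher and 17.6% lower, the shares to set beside this count and those of the lists below. Summed over the 18 genes, the level was 990, 1017, 1052 and 948 CPM in HSC libraries 1 to 4 and 820, 835, 844 and 826 CPM in HPC libraries 1 to 4. The HSC mean was 1.21-fold higher, a log2 difference of 0.27. HSC replicate 4 had the lowest value of its fraction for 6 of the 8 enzymes that rose. Summed red cell markers were also higher in HSC, 13.1-fold in the mean. They stood at 2174, 2094, 1992 and 2568 CPM in HSC libraries 1 to 4. On this list of 9 genes 6 rose in HSC and none fell, their sum was 1992 to 2568 CPM in HSC and 100 to 222 CPM in HPC, and none was at 0 in all libraries. HSC replicate 4, the lowest in summed synthesis genes, was the highest in summed red cell markers. Of 6 megakaryocyte and platelet genes reported here 4 also rose in HSC and 1 fell, with a sum of 251 to 293 CPM against 156 to 205 CPM in HPC and none at 0 in all libraries. Genes of dividing cells went the opposite way to synthesis, with 15 of 15 lower in HSC and a sum of 1595 to 1801 against 3281 to 3842 CPM. The part of any of these 3 lists in the synthesis values was not tested.

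**Figure D3:**
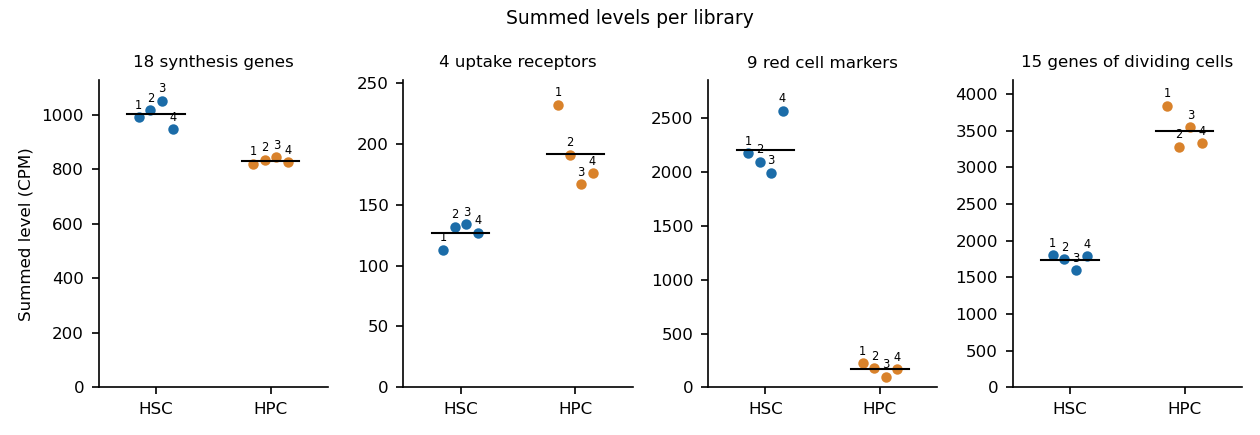
Summed CPM per library, one panel a list, with points numbered by replicate, black lines for the means and axes from 0. Synthesis genes sum to 948 to 1052 CPM in HSC and 820 to 844 CPM in HPC, while uptake receptors and genes of dividing cells are lower in HSC and red cell markers are higher.

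Among the 4 uptake receptors, 2 fell, none rose and all 4 changes lay below 0, at a median of −0.84. Lower calls made up 17.6% of all genes tested and higher calls 19.6%. Vldlr, a receptor of lipoproteins rich in triglyceride (gene 22359, chromosome 19, 27216489 to 27254231), had the largest change of all members. It stood at 4.77, 6.22, 6.19 and 6.70 CPM in HSC and at 51.9, 37.0, 39.1 and 39.0 CPM in HPC, with all HPC libraries far above all HSC libraries. The mean was 6.99-fold lower (log2 −2.80 ± 0.17, edgeR adjusted p = 1.2e-08), and uniquely placed reads, 64.7% of its exon reads, gave −2.85. Lrp1, a large endocytic receptor with many ligands (gene 16971, chromosome 10, 127538157 to 127621148), was scarce in both fractions, at 1.85, 2.40, 2.36 and 1.05 CPM in HSC and at 7.66, 3.63, 4.90 and 3.81 CPM in HPC. Its groups did not overlap (log2 −1.38 ± 0.38, edgeR adjusted p = 0.011), but without HPC replicate 1, its highest library, the adjusted p was 0.0508. Scarb1, the receptor of high-density lipoprotein, was at 107 ± 10.7 against 131 ± 21.7 CPM without a call (edgeR adjusted p = 0.065), but passed without HPC replicate 3 (0.026) or 4 (0.041) and with voom (0.028). Lrp8, a receptor also known for reelin signalling, was at 12.2 ± 3.27 against 13.3 ± 1.94 CPM.

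Of 9 macrophage and monocyte markers 2 were lower in HSC, Csf1r and Cd68, and 7 had no call, while 17.6% of all genes tested were lower. On intron reads 1 of 6 tested markers was higher and 0 were lower. Their sum was 233 to 350 CPM in HSC and 256 to 518 CPM in HPC, mostly from Lyz2 (191 ± 32.9 against 262 ± 72.5 CPM, no call), and no marker was at 0 in all libraries. Neutrophil markers, 3 of 6 tested lower in HSC and none higher, summed to 129 to 296 CPM against 1664 to 2787 CPM, with Mpo making up most of the HPC sum (65.8 ± 47.4 against 1947 ± 404 CPM). The part of these cells in the receptor values was not tested.

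Trafficking and storage genes split, with 1 of 4 higher and 2 lower, beside 19.6% higher and 17.6% lower of all genes tested. Npc1 and Npc2, which together hand cholesterol out of lysosomes, both fell. Npc1 (gene 18145, chromosome 18, 12189694 to 12236432) stood at 33, 31.3, 32.2 and 22.8 CPM in HSC and at 53.6, 45.9, 64.1 and 39.6 CPM in HPC. Every HSC library lay below every HPC library, and the mean was 1.70-fold lower (log2 −0.77 ± 0.16, edgeR adjusted p = 0.0018). Npc2 (gene 67963, chromosome 12, 84754559 to 84773112) was at 181, 166, 159 and 181 CPM in HSC and at 250, 220, 246 and 251 CPM in HPC. It was 1.41-fold lower without overlap (log2 −0.49 ± 0.09, edgeR adjusted p = 4.8e-04).

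Stard4, a carrier that moves sterol between membranes (gene 170459, chromosome 18, 33199142 to 33213863), rose instead. It stood at 168, 155, 154 and 132 CPM in HSC and at 98.5, 83.9, 103 and 73.0 CPM in HPC, again without overlap (log2 0.77 ± 0.12, edgeR adjusted p = 1.3e-04). Soat1, which esterifies cholesterol for storage, was at 27.9 ± 5.84 against 37.0 ± 5.01 CPM without a call (edgeR adjusted p = 0.064), but passed without HSC replicate 3 (0.021) and without HPC replicate 2 (0.039). Npc1 overlaps the gene 3110002H16Rik on the opposite strand, which had no call, and 65.9% of its exon reads were uniquely placed (these alone gave −0.79).

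Of the 8 regulators, 3 rose in HSC and none fell, beside 19.6% higher and 17.6% lower of all genes tested. The median log2 change was −0.07. The SREBP genes and their escort Scap had no call. Srebf1, which encodes SREBP1 and is known mainly for fatty acid genes, stood at 86.0, 96.3, 105 and 87.4 CPM in HSC and at 125, 96.1, 85.9 and 68.8 CPM in HPC (log2 −0.01 ± 0.15, edgeR adjusted p = 0.98). Srebf2, which encodes SREBP2, the main factor of cholesterol genes, stood at 117, 148, 204 and 138 CPM in HSC and at 149, 211, 167 and 162 CPM in HPC (log2 −0.18 ± 0.15, edgeR adjusted p = 0.39). Both overlapped widely between the fractions. Scap was at 67.3, 69.9, 87.2 and 73.5 CPM in HSC and at 100, 102, 79.7 and 80.6 CPM in HPC, without a call (edgeR adjusted p = 0.080), and passed without HSC replicate 3 (0.038) or HPC replicate 3 (0.044).

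Both INSIG genes were higher in HSC. Insig1, itself a known SREBP target (gene 231070, chromosome 5, 28071412 to 28078662), stood at 127, 146, 126 and 120 CPM in HSC and at 59.5, 91.6, 63.9 and 64.0 CPM in HPC. No libraries overlapped, although HPC replicate 2 lay well above the other HPC libraries (log2 0.90 ± 0.13, edgeR adjusted p = 8.3e-05). Only 17.8% of the exon reads of Insig1 were uniquely placed, and these alone gave 0.74 (edgeR adjusted p = 0.0045). Insig2 (gene 72999, chromosome 1, 121304353 to 121332589) stood at 43.0, 39.2, 47.2 and 52.3 CPM in HSC and at 29.8, 39.2, 31.8 and 36.0 CPM in HPC. Its groups touched at 39.2 CPM, and the call (log2 0.41 ± 0.13, edgeR adjusted p = 0.026) was lost without HSC replicate 3 or 4 and without HPC replicate 1 or 3.

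The LXR genes differed in level and in change. Nr1h2, which encodes the widely expressed LXR beta, stood at 117, 106, 114 and 131 CPM in HSC and at 127, 150, 106 and 130 CPM in HPC (log2 −0.13 ± 0.11, edgeR adjusted p = 0.40). Nr1h3, which encodes LXR alpha (gene 22259, chromosome 2, 91184061 to 91202829), was at 5.19, 5.65, 3.12 and 4.96 CPM in HSC and at 1.16, 2.14, 1.84 and 0.773 CPM in HPC. This low gene was 3.20-fold higher in HSC without overlap (log2 1.67 ± 0.40, edgeR adjusted p = 0.0041), and counting gene reads, introns included, gave 1.01. Mylip, a ubiquitin ligase that marks lipoprotein receptors for breakdown and is a known LXR target, was at 26.6 ± 1.15 against 29.6 ± 5.45 CPM and did not pass.

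Compared per length, in the deposited RPKM, levels of paired regulators could be set side by side within a library. Srebf2 exceeded Srebf1 in all 8 libraries, at 1.19 to 1.71 times in HSC and 1.04 to 2.06 times in HPC. Insig1 exceeded Insig2 by 3.0 to 4.85 times in HSC and by 2.32 to 3.04 times in HPC. Nr1h2 exceeded Nr1h3 by 19.1 to 37.0 times in HSC and by 58.5 to 170 times in HPC. On the same scale the most abundant synthesis genes in HSC were Acat2 and Fdps (48.0 and 43.4 RPKM), whose ranges overlapped, and Npc2 stood at 7.95 to 12.8 times Npc1 in HSC and 6.17 to 10.2 times in HPC.

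**Figure D4:**
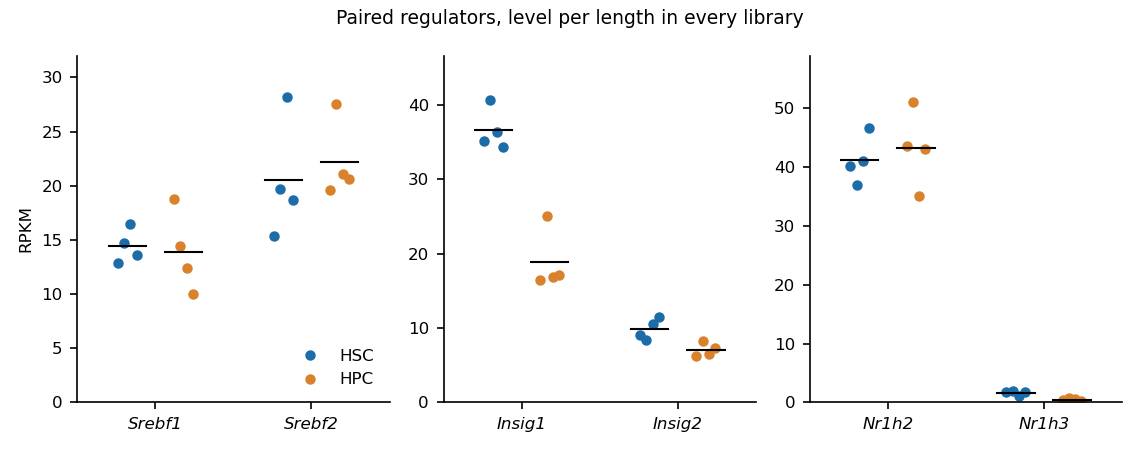
Deposited RPKM of the SREBP, INSIG and LXR gene pairs in each library, HSC in blue and HPC in orange, with black lines for the means and axes from 0. Insig1 lies at 34.3 to 40.7 in HSC and 16.4 to 25.1 in HPC. At lower levels Nr1h3 is also apart between the fractions and Insig2 only barely (8.39 to 11.5 against 6.30 to 8.25). Srebf1, Srebf2 and Nr1h2 overlap.

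Srebf2 hosts the gene of microRNA 33 in an intron (chromosome 15, plus strand, GRCm38.p6), known to act on cholesterol export. Its mature arms are shown since they share the transcript of Srebf2, with the seed, bases 2 to 8, in capitals.
mmu-miR-33-5p: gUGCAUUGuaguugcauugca
mmu-miR-33-3p: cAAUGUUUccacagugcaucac
The Mir33 row held 0 gene reads in each of the 8 libraries, which were not made for small RNA, so no level can be given. Intron reads of Srebf2 itself, 13262 over all libraries, were the most of any member and did not differ (intron log2 change 0.13 ± 0.12, edgeR adjusted p = 0.51).

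Intron reads come mainly from unspliced RNA and were counted apart from exon reads in the same libraries. They were enough to test in 33 of 34 members, all but Idi1, of which 5 rose in HSC and 2 fell. The shares called over all 15142 genes tested on intron reads were 10.8% higher and 9.43% lower, 20.2% in all. Vldlr fell in introns as well (1.82 ± 0.957 against 10.3 ± 3.77 intron CPM, log2 −2.48 ± 0.47, edgeR adjusted p = 0.0019), and so did Npc1 (7.24 ± 3.07 against 24.2 ± 6.04 intron CPM, log2 −1.73 ± 0.35, edgeR adjusted p = 0.0027). Insig1 rose in introns from 7.69 ± 1.70 to 18.4 ± 3.12 intron CPM, HPC to HSC (log2 1.26 ± 0.28, edgeR adjusted p = 0.0049). Gm35223, on the opposite strand, covers all of Insig1 and held 79 to 221 gene reads a library, beside 36 to 139 intron reads of Insig1. Gm35438 likewise covers all of Vldlr, at 1 to 60 gene reads beside 6 to 84 intron reads of Vldlr. On the opposite strand 3110002H16Rik overlaps Npc1 over 8982 bases, at 868 to 1069 gene reads beside 15 to 180 intron reads of Npc1. Without a known strand setting, reads of these shared stretches cannot be told apart.

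Mvd passed on intron reads but not on exon reads. Its intron reads were higher in HSC (23.8 ± 1.68 against 9.34 ± 1.41 intron CPM, log2 1.34 ± 0.23, edgeR adjusted p = 7.9e-04) while its exon change was 0.11 (edgeR adjusted p = 0.70), and gene reads, which hold both, gave 0.51 (edgeR adjusted p = 0.022). Whether the 2 changes differ from each other was not tested. These 4 intron calls, of Vldlr, Npc1, Insig1 and Mvd, held in all 8 fits that left out 1 library. Those of Msmo1 (0.83), Stard4 (0.87) and Fdft1 (0.68) held in 3, 1 and 1 of the 8, so the count of 5 higher members fell to 2 or 3 whichever library was left out.

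**Figure D5:**
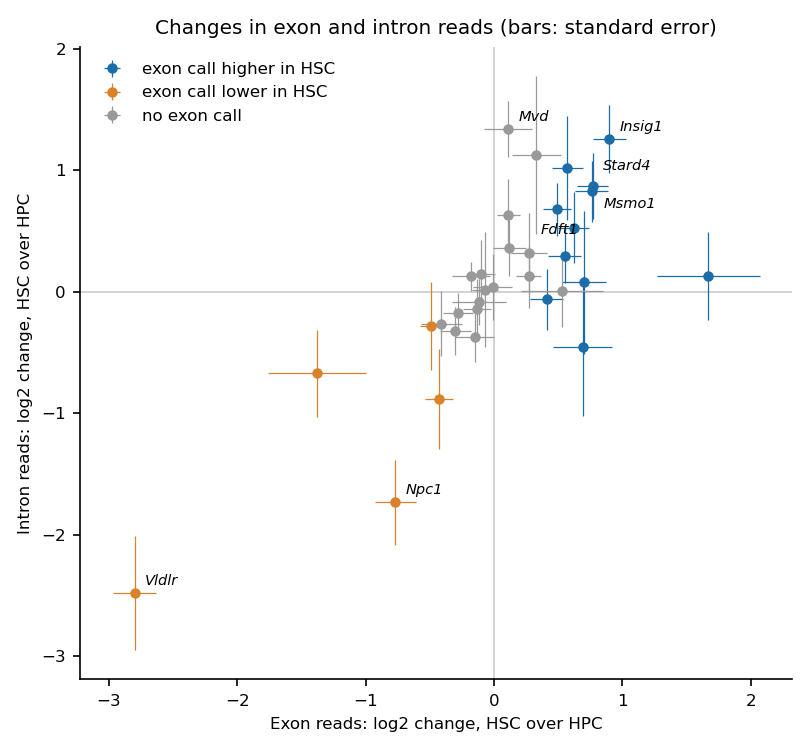
Log2 change in intron reads against that in exon reads for the 33 members tested in both, with standard errors as bars, coloured by the exon call and named where intron reads passed the test. Vldlr and Npc1 lie low on both axes, Insig1 lies high on both, and Mvd lies at 1.34 in intron reads and 0.11 in exon reads.

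Neighbouring parts of lipid metabolism were read from lists of named genes. Of 12 fatty acid synthesis genes, 6 were higher in HSC and 4 lower, where all genes tested gave 19.6% higher and 17.6% lower. The desaturases Scd1, Fads1 and Fads2 rose, with Scd1 at 7.79 ± 0.888 against 0.488 ± 0.257 CPM (log2 3.97 ± 0.42), Fads1 at 91.6 ± 8.98 against 48.3 ± 2.23 CPM and Fads2 2.09-fold higher. The elongases Elovl5 (71.3 ± 6.19 against 152 ± 8.78 CPM) and Elovl6 (1.28-fold) and the fatty acid synthase Fasn (1.53-fold) were lower (edgeR adjusted p from 5.8e-07 to 0.017 for these 6 genes). Genes of SREBP processing and sterol-driven enzyme turnover went both ways. The ubiquitin ligase Rnf139 (38.0 ± 2.64 against 24.2 ± 6.03 CPM, with 9.23% of reads uniquely placed) was higher, and Erlin1 (1.46-fold) and the SREBP protease Mbtps2 (1.30-fold, edgeR adjusted p = 0.0483) were lower.

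Of 22 genes of transport, efflux and receptor partners, 5 were higher and 5 lower. These counts are close to the shares over all genes tested, 19.6% higher and 17.6% lower. Nceh1, which hydrolyses cholesterol esters, stood at 100 ± 17.4 against 48.4 ± 3.08 CPM, and the fatty acid receptor Cd36 (4.43 ± 0.260 against 0.350 ± 0.324 CPM) and the transporter Abcg4 (8.33 ± 2.62 against 0.638 ± 0.736 CPM) were low genes that rose. Lower in HSC were the sterol carriers Gramd1a (79.7 ± 10.5 against 124 ± 5.84 CPM) and Stard3 (1.61-fold), and also Osbpl8 (1.76-fold). Among 5 oxysterol enzymes tested 1 was called, Cyp7b1, at 11.3 ± 1.70 against 3.65 ± 1.03 CPM (log2 1.63 ± 0.26). Of 11 tested genes of isoprenoid branches 1 was called, Rabggtb, a prenyltransferase subunit, 1.33-fold higher. No test set these lists apart from other genes.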

How the data were processed

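The 8 bulk RNA-seq libraries, 4 HSC and 4 HPC, took their group from their titles. The labels' protocols name ISOGEN for RNA, SMARTer Pico cDNA with 18 PCR cycles and Nextera XT libraries. The submitters' processing notes give build mm10, and for the aligner, counter and strand setting the sources used here give no name. The deposited counts are whole reads per row, by exon, intron and gene, per the file headers. The deposited RPKM is exon reads scaled by exon length and library size, per the file headers, and was used only to compare levels between genes. Total exon reads were summed per gene ID, since 1931 of 46113 IDs held several rows.

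Counts of 21991 genes with exons were filtered (filterByExpr), TMM-scaled and tested with edgeR 4.0.16 in R 4.3.3 without covariates. SE is the size of the change over the square root of F. Intron reads were fitted likewise. On simulated counts for this comparison (12621 genes), the test recovered 73 of 100 genes set at 2-fold and 39 of 100 at 1.5-fold. There were 5 false calls among 12421 unchanged genes. Far fewer genes changed in the simulation than the 37.1% called in the data, so these rates need not hold for the data. Library pairs within a fraction differed beyond sampling noise.

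Members and lists were chosen with earlier results of these data known, and are not the whole pathway. Values per library are given for called members and 7 regulators. Of other lists, up to 3 called genes per direction with the smallest adjusted p are named, and of cell lists the most abundant gene, with Csf1r, Cd68 and Mpo named after their values were seen. Some genes of these lists are not reported here. Alternatives were RLE and upper quartile scaling, 2 other count filters, the replicate number as a block, DESeq2 1.42.0, voom of limma 3.58.1 with quality weights, unique exon reads, gene reads, main-assembly rows, a tested fold of 1.5 and leaving out libraries. Leaving out libraries for intron reads and summed levels was added after seeing the data.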

Additional observations from a re-analysis of the deposited data

Results flagged for a closer look

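In 68 groups of 4 values (34 members in 2 fractions), 5 had a library farther from the rest than Dixon's 95% limit for 4 values allows, where chance gives about 1 in 20. Vldlr stood at 51.9 CPM in HPC replicate 1, against 37.0 to 39.1 CPM in the other HPC libraries. Insig1 stood at 91.6 CPM in HPC replicate 2, against 59.5 to 64.0 CPM, which is toward the HSC level. Npc2 was at 220 CPM in the same library, HPC replicate 2, against 246 to 251 CPM. Npc1 was at 22.8 CPM in HSC replicate 4, against 31.3 to 33 CPM. Tm7sf2 was at 6.32 CPM in HSC replicate 1, against 4.65 to 4.90 CPM.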

How the results depend on the processing

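Of 17 called members, 13 kept their call in all 19 alternatives other than a tested fold, none changed direction, and Idi1, Hsd17b7, Lrp1 and Insig2 lost theirs in at least 1. When the test asked for a minimum fold of 1.5, 1296 genes were higher and 803 lower over all genes, 2 and 1 over the members, 0 and 0 over synthesis genes and 2 and 1 over the other members, since that test asks for a larger change. With the replicate number as a block, 13 members were higher and 6 lower. Deviations of same-numbered libraries from their group means had correlations of −0.118 to 0.146 across genes. Such weak values cannot show whether the numbers pair the libraries, since a pairing with small shared effects would look alike. Members without a call changed sign near 0: Dhcr7 with upper quartile scaling (0.01), Lrp8 without both libraries numbered 4 (0.09), and Srebf1 with upper quartile scaling (0.07), the filter of 50 reads in 4 libraries (0.01), the block (0.02) and libraries left out (−0.14 to 0.15). The cause was not tested. Members higher on intron reads numbered 2 to 3 without 1 library. Upper quartile scaling moved the median of all genes by 0.077. Of 17 members without a call, 5 gained one in at least 1 alternative. On simulated counts, with far fewer changed genes than the data, 39 of 100 genes set at 1.5-fold were recovered. That rate need not hold for the data, but a missing call at such a size does not show that the levels were alike.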

Other observations

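Values are given for HSC against HPC, where 19.6% of all genes tested were higher and 17.6% lower. Of 5 B cell genes 2 were higher in HSC and none lower, and their sum, mostly Cd79b (53.0 ± 5.64 against 54.1 ± 4.11 CPM, SD, n = 4 each), was 60.2 to 78.6 against 57.4 to 63.9 CPM. Of 4 tested stroma and endothelium genes 2 were higher and 1 lower, and Pecam1 made up most of the sum (46.8 ± 7.76 against 119 ± 7.15 CPM). The red cell marker with the highest CPM was Car1, a carbonic anhydrase (1582 ± 217 against 79.8 ± 17.7 CPM), and the gene of dividing cells with the highest CPM was Top2a, a topoisomerase (194 ± 25.2 against 616 ± 132 CPM). The part of these cells in the cholesterol gene values was not tested.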
